A study of Homo sapiens with 30 samples.

Results

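The genes described are 10 genes of cholesterol synthesis and its control, namely SREBF2, INSIG1, HMGCS1, MVD, IDI1, FDPS, SQLE, LSS, EBP and DHCR7. They were taken by symbol, with every probe set that the platform annotation pairs with exactly 1 of these symbols. That gave 22 of the 22215 probe sets tested, and 10 of the 11963 genes that the annotation names alone on at least 1 probe set. Human small airway epithelial cells, bought as primary cells and grown in flasks, were exposed in culture medium to multi-walled carbon nanotubes (MWCNT) or titanium dioxide nanobelts (TiO2). The dose of either particle was 10 or 100 ug/ml, the exposure lasted 1 or 24 h, and a control at 0 ug/ml was kept for each time. Each of the 10 groups held 3 cultures labelled as biological replicates, on 30 Affymetrix arrays. No genetic change or other agent is named for any group, and no source says whether the 3 cultures came from separate donors, so p-values measure the spread between cultures. MWCNT and TiO2 groups of one time share 1 set of 3 control arrays.

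Cells make cholesterol from acetyl units through the mevalonate pathway. HMGCS1, MVD, IDI1 and FDPS encode enzymes that lead to farnesyl diphosphate, and SQLE, LSS, EBP and DHCR7 encode enzymes that turn squalene into lanosterol and then into cholesterol. When sterol in the endoplasmic reticulum is low, the transcription factor encoded by SREBF2 moves to the Golgi, is cut there and raises transcription of these genes. INSIG1, itself a target of the factor, holds its precursor in the endoplasmic reticulum when sterol is high. Airway epithelial cells in culture need cholesterol for new membrane.

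Promoter sequence from RefSeq (GRCh38.p14) is shown for both regulators and for FDPS, LSS and EBP. These are the 3 enzymes with at least 1 probe set on which the difference between the particles changed between the times. The table had windows for 9 of the 10 genes, 13 windows in all. Each line is the 250 bases before a start site, read 5′ to 3′ on the gene's strand. Capitals mark the CCAAT box, a binding site of the factor NF-Y, on either strand (CCAAT or ATTGG), and in SREBF2 also the sterol response element core TCACNCCAC.
SREBF2, chr22:41832855-41833104, plus strand: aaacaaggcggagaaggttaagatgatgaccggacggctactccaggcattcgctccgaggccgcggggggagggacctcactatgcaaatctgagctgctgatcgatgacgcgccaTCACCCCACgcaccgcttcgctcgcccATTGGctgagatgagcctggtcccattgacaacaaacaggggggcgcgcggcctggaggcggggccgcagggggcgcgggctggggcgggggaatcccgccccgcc
INSIG1, chr7:155297628-155297877, plus strand: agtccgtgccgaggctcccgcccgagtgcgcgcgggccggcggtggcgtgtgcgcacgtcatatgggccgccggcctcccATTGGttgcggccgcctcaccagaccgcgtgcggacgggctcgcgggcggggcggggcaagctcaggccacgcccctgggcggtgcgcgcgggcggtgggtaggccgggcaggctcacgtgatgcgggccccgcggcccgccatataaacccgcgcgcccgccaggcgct
FDPS, chr1:155308616-155308865, plus strand: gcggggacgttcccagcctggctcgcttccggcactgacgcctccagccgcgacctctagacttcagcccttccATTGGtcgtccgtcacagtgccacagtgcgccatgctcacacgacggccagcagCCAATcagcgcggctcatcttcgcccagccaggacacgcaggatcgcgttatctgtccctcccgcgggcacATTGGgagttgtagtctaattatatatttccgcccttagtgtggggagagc
LSS, chr21:46228775-46229024, minus strand: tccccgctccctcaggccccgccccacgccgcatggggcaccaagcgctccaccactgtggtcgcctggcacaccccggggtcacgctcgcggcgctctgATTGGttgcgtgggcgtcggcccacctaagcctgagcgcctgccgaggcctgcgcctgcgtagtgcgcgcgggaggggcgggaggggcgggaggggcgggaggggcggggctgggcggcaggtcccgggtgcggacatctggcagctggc
EBP, chrX:48521558-48521807, plus strand: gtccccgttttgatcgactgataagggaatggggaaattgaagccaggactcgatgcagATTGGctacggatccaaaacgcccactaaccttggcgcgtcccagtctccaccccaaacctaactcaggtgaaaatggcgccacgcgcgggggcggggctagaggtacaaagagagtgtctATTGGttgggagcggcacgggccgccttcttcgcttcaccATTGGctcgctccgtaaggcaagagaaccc

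The core TCACNCCAC, searched on both strands, was in the SREBF2 window and in no other member window, where it reads TCACCCCAC at bases -133 to -125 before the start site. It was in 0.883% of all 35116 windows of this length. At least 1 window of each of the 9 genes held a CCAAT box, and 10 of their 13 windows did, against 32.0% of all windows and 37.0% of all genes with a window. EBP, FDPS, MVD and 1 of the 3 IDI1 windows each held 3 CCAAT boxes in 250 bases. The E-box CACGTG was in the INSIG1 window alone among the members and in 6.34% of all windows. The GC box GGGCGG was in 12 of 13 member windows and 42.6% of all. In the member windows, matches overlapped only within a motif, for CCAAT in IDI1 and GGGCGG in INSIG1. A match describes letters only, and no match in these windows says nothing of binding elsewhere.

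The deposited values are log2 expression, on which a difference of 1 is a doubling. The arrays were alike in level, with medians from 7.15 to 7.21, and 18 of the 22 member probe sets averaged more than 7.18, the median of all deposited values. Those under it were 205822_s_at of HMGCS1, 203027_s_at of MVD, and 211018_at and 211019_s_at of LSS. Of 7 measured airway epithelial and basal markers, 4 were above the table median, led by ITGA6 at 8.93 and CDH1 at 7.93, while KRT14 was at 3.94 and the club cell marker SCGB1A1 at 4.35. None of 3 secretory, 2 ciliated and 3 endothelial markers was above it. Of the alveolar, fibroblast and immune lists 1 gene each was above it (SFTPC, COL1A1 and CD14), while LUM of fibroblasts was at 2.59 and PTPRC of leukocytes at 3.50. The 24 h controls varied most: replicates 1 and 2 of that group lay 0.155 and 0.132 from their group mean over all probe sets (root mean square, log2). The 3′ minus 5′ probe set difference of ACTB, a measure of RNA integrity and labelling, gave group means of 0.333 to 0.388 at 1 h and 0.472 to 0.590 at 24 h, and the same difference in GAPDH was 0.0526 to 0.0792 throughout. In whole cultures, fewer cells of a type and less RNA per cell cannot be told apart.

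The first comparison was of unexposed cells at 24 h against 1 h, which sets the level from which each particle response is read. INSIG1, HMGCS1 and IDI1 fell, and FDPS and 1 of 3 SQLE probe sets rose. By direction, 6 of 22 member probe sets were lower (27.3%, against 11.6% of all probe sets tested) and 2 were higher (9.09%, against 16.2%). A probe set passed where limma's two-sided p, adjusted by Benjamini and Hochberg over all 22215 probe sets, was under 0.05.

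Among the regulators, INSIG1 (201627_s_at) read 10.40, 10.23 and 10.32 in the controls at 1 h and 9.24, 9.55 and 9.34 at 24 h. All values at 24 h lay below all values at 1 h. The difference was -0.94 ± 0.09 (SE of limma's fit, 1.92-fold lower, adjusted p = 6.55e-09). The other INSIG1 probe sets, 201626_at and 201625_s_at, fell by 0.84 and 0.46 without overlap. For SREBF2, which encodes the factor itself, 201247_at differed by -0.19 ± 0.09 (adjusted p = 0.111) and 201248_s_at by -0.23 ± 0.09 (adjusted p = 0.0504), and neither passed.

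In the mevalonate arm, HMGCS1 (221750_at), the synthase that makes the substrate of the rate-limiting step, read 8.92, 8.73 and 8.84 at 1 h and 8.43, 8.23 and 8.08 at 24 h. The groups did not overlap, and the difference was -0.59 ± 0.09 (1.50-fold lower, adjusted p = 2.56e-05). The dimmer HMGCS1 probe set differed by -0.30 ± 0.15 and did not pass (adjusted p = 0.144). IDI1, the isomerase that makes dimethylallyl diphosphate, read 10.94, 11.04 and 10.96 at 1 h and 10.43, 10.55 and 10.51 at 24 h on 208881_x_at. The difference was -0.49 ± 0.06 on both of its probe sets, whose x suffix marks sets with probes that may also bind related transcripts. FDPS, which makes farnesyl diphosphate, went the other way: 11.38, 11.33 and 11.30 at 1 h and 11.57, 11.53 and 11.57 at 24 h. The difference was 0.22 ± 0.04 (1.17-fold, adjusted p = 0.000240), without overlap. MVD, the decarboxylase before IDI1, differed by -0.04 ± 0.10.

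Beyond squalene, no probe set of LSS, EBP or DHCR7 passed in the controls over time. DHCR7, the reductase of the last step, differed by -0.18 ± 0.08 on 201790_s_at (adjusted p = 0.117). SQLE, the epoxidase that is a second control point of the pathway, gave opposite values on its probe sets: 0.34 ± 0.11 on 213577_at (adjusted p = 0.0259), and -0.17 ± 0.08 and -0.25 ± 0.10 on the others, which did not pass. The 24 h controls on 213577_at ranged from 7.38 in replicate 1 to 8.13 in replicate 2, so that 1 culture lay below all 3 of the 1 h controls and the groups overlapped. This call passed when 2 of the 6 arrays were left out in turn and was lost with the others. Without control replicate 2 at 24 h the SQLE rise was 0.19 (adjusted p = 0.199), and without replicate 1 it was 0.57. The INSIG1, HMGCS1 and IDI1 falls passed without any one of the 6 arrays, as did the FDPS rise. When only these 2 groups were fitted, FDPS missed the threshold (adjusted p = 0.0576), as did SQLE 213577_at (adjusted p = 0.253), which also missed it under cyclic loess (adjusted p = 0.0509). ACTB's 3′ minus 5′ difference was 0.336 ± 0.078 at 1 h and 0.590 ± 0.23 at 24 h (SD, n = 3), and its part in these differences was not tested. The immune marker list, 5 of 6 genes measured and 1 above the table median, averaged 5.39 to 5.47 at 1 h and 5.19 to 5.33 at 24 h, and its part was not tested either.

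**Figure D1:**
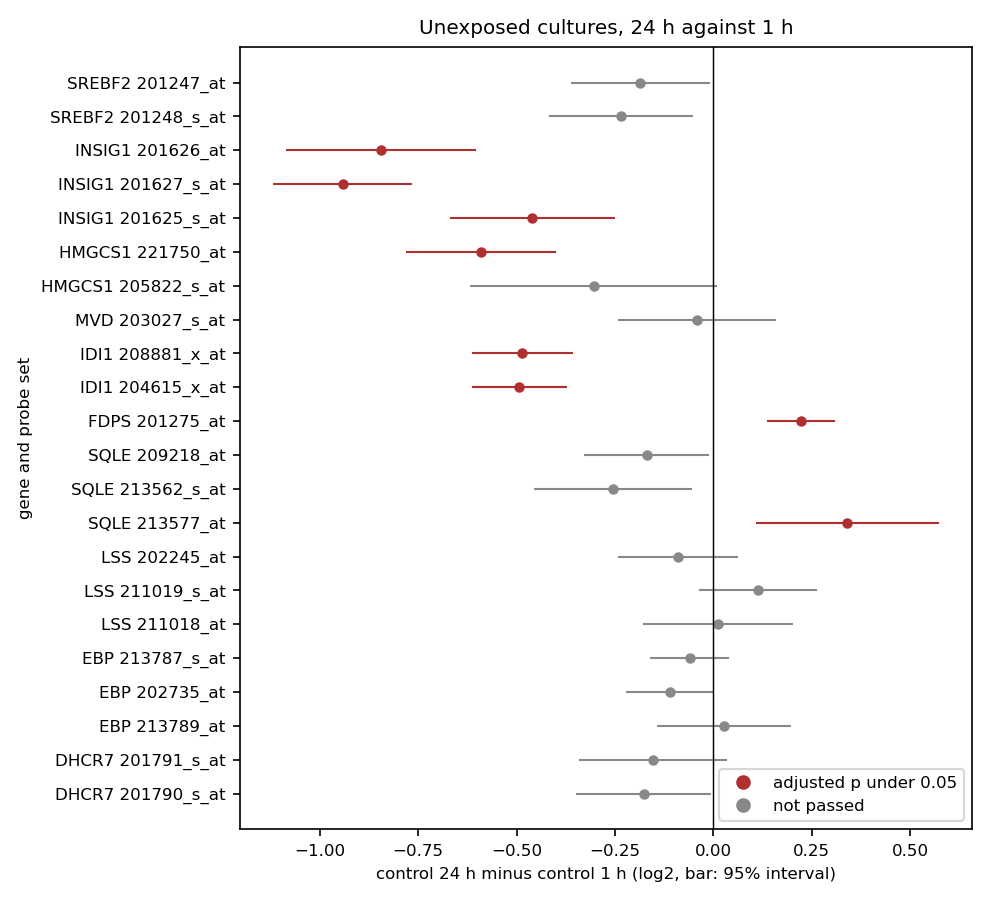
Difference between unexposed cultures at 24 h and at 1 h for each of the 22 probe sets, on the log2 scale, with the 95% interval of limma's fit as a bar. INSIG1, HMGCS1 and IDI1 lie to the left (201627_s_at of INSIG1 at -0.94), FDPS and 213577_at of SQLE to the right, and probe sets of LSS and EBP between -0.11 and 0.11.

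EBP and FDPS fell in cells exposed to nanotubes for 1 h. At 100 ug/ml, 3 of 22 member probe sets fell (13.6%, against 0.284% of all tested) and none rose. The median difference of the members was -0.10, against -0.02 over all probe sets, and 18 of 22 were below 0 (81.8%, against 58.1% of all). At 10 ug/ml no member passed in limma, and 0.0315% of all probe sets passed in either direction. Unadjusted, 4 of 22 members had a p under 0.05 at that dose, against 10.7% of all probe sets.

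EBP encodes the sterol isomerase that shifts a double bond of the sterol ring. Its probe set 213787_s_at read 11.83, 11.83 and 11.83 in the 1 h controls, 11.67, 11.63 and 11.65 with 10 ug/ml MWCNT and 11.62, 11.63 and 11.59 with 100 ug/ml. All 6 exposed arrays lay below all 3 controls. The difference at 100 ug/ml was -0.22 ± 0.05 (1.16-fold lower, adjusted p = 0.0188), and at 10 ug/ml it was -0.18 ± 0.05 and did not pass (adjusted p = 0.258). Another EBP probe set, 202735_at, read 10.70, 10.67 and 10.70 in the controls, 10.49, 10.53 and 10.51 at 10 ug/ml and 10.55, 10.42 and 10.46 at 100 ug/ml. Here too the exposed arrays lay below the controls, with a difference of -0.21 ± 0.05 at 100 ug/ml (adjusted p = 0.0430). The dimmer 213789_at of EBP differed by -0.09 ± 0.08 and did not pass.

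FDPS read 11.38, 11.33 and 11.30 in the controls, 11.22, 11.19 and 11.18 at 10 ug/ml and 11.17, 11.15 and 11.18 at 100 ug/ml. The exposed and control arrays did not overlap at either dose. The difference at 100 ug/ml was -0.17 ± 0.04 (1.12-fold lower, adjusted p = 0.0425), and at 10 ug/ml it was -0.14 ± 0.04 and did not pass (adjusted p = 0.281). DHCR7 on 201790_s_at read 9.63, 9.52 and 9.58 in the controls and 9.30, 9.42 and 9.29 at 100 ug/ml, without overlap, but its difference of -0.24 ± 0.08 did not pass (adjusted p = 0.198). At 1 h, LSS, the cyclase that makes lanosterol, differed by -0.12 to -0.19 over its 3 probe sets, none of which passed. The calls of EBP and FDPS were close to the threshold. Leaving out 1 of the 6 arrays left 0 to 2 of the 3 calls, with 0 without control replicate 1 or 2 or without exposed replicate 2 or 3. A fit of these 2 groups alone left 0, and under cyclic loess FDPS missed the threshold (adjusted p = 0.0600). For each cell type marker list, the range over the arrays with 100 ug/ml MWCNT at 1 h overlapped that of the controls. At 10 ug/ml the secretory list did not, with 5.43 to 5.55 against 5.66 to 5.78 in the controls, and its part was not tested.

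With TiO2 at 1 h, 1 SQLE probe set rose and no other member passed the test. On 213577_at the controls read 7.44, 7.46 and 7.60, the cultures with 10 ug/ml TiO2 7.94, 7.99 and 8.04, and those with 100 ug/ml 8.30, 8.15 and 8.22. Each group lay above the one before it without overlap. The difference was 0.49 ± 0.11 at 10 ug/ml (1.41-fold, adjusted p = 0.0233) and 0.73 ± 0.11 at 100 ug/ml (1.65-fold, adjusted p = 0.000297). With MWCNT the same probe set read 7.61, 7.64 and 7.71 at 10 ug/ml and 7.77, 7.82 and 7.93 at 100 ug/ml. From the controls to the higher MWCNT dose, too, each group lay above the one before it without overlap. The MWCNT differences from control, 0.15 ± 0.11 and 0.34 ± 0.11, did not pass (adjusted p = 0.621 and 0.159).

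The other SQLE probe sets did not follow it. At 100 ug/ml TiO2 for 1 h, 209218_at differed by 0.08 ± 0.08 and 213562_s_at by -0.01 ± 0.10. Over the 10 group means, 213577_at correlated with them at r = -0.34 and r = -0.49, while 209218_at and 213562_s_at correlated with each other at 0.98. These are descriptions over groups of 3 arrays that share the same libraries. The member count at 1 h with TiO2 was therefore 1 of 22 higher at each dose (4.55%), against 1.25% of all probe sets at 10 ug/ml and 2.34% at 100 ug/ml. The median member difference was 0.02 at either dose, against -0.01 and -0.03 over all probe sets at 10 and 100 ug/ml. The rise at 100 ug/ml passed without any one of the 6 arrays, whereas the one at 10 ug/ml passed only without control replicate 3, with adjusted p up to 0.142 without another.

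**Figure D2:**
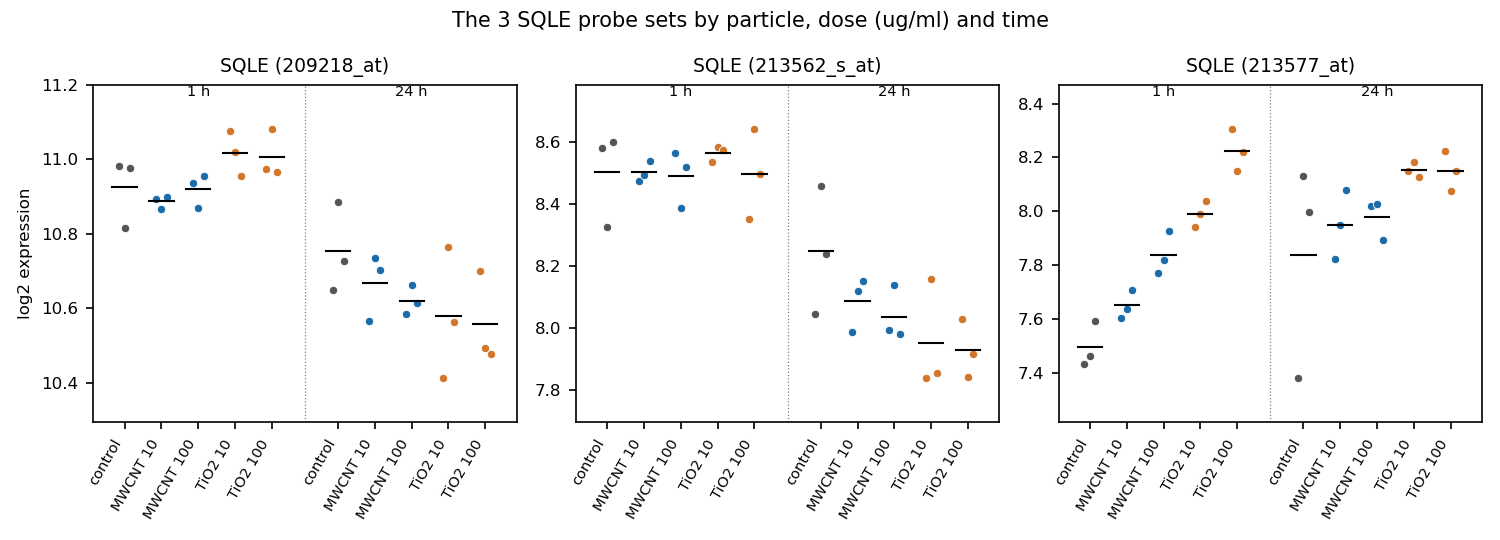
Log2 expression of the 3 SQLE probe sets in each of the 30 arrays (points) with the group mean (bar), by particle, dose in ug/ml and time, each panel with its own axis. On 213577_at the 1 h groups climb from controls at 7.44 to 7.60 to TiO2 100 at 8.15 to 8.30, which the other panels do not show, and 1 control at 24 h lies at 7.38.

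At 24 h LSS, EBP, FDPS, SQLE and INSIG1 fell in cells with 100 ug/ml TiO2. There, 8 of 22 member probe sets fell (36.4%, against 6.55% of all tested) and none rose (3.82% of all). The 5 genes were LSS with 3 probe sets, EBP with 2, and FDPS, SQLE and INSIG1 with 1 each. By role, 6 of the 11 probe sets beyond squalene fell, 1 of the 6 of the mevalonate arm and 1 of the 5 of the regulators. The median member difference was -0.15, against -0.02 over all probe sets, with 19 of 22 members below 0 (86.4%, against 55.1% of all). Unadjusted, 13 of 22 had a p under 0.05, against 28.1% of all.

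LSS on 211019_s_at read 6.95, 6.90 and 6.95 in the 24 h controls, 6.61, 6.68 and 6.57 with 10 ug/ml TiO2, and 6.71, 6.50 and 6.38 with 100 ug/ml. Neither exposed group overlapped the controls. The difference was -0.40 ± 0.07 at 100 ug/ml (1.32-fold lower, adjusted p = 0.00182) and -0.31 ± 0.07 at 10 ug/ml (1.24-fold lower, adjusted p = 0.0250). The other LSS probe sets fell at 100 ug/ml as well, with differences of -0.34 ± 0.09 on 211018_at (adjusted p = 0.0213) and -0.27 ± 0.07 on the brightest, 202245_at (adjusted p = 0.0225). On 202245_at the arrays read 9.91, 10.22 and 10.03 in the controls and 9.93, 9.70 and 9.71 with TiO2, so that 1 exposed array lay within the controls. At 10 ug/ml this probe set differed by -0.02 ± 0.07.

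EBP on 202735_at read 10.64, 10.55 and 10.55 in the controls and 10.48, 10.40 and 10.32 with 100 ug/ml TiO2, without overlap. The difference was -0.18 ± 0.05 (1.14-fold lower, adjusted p = 0.0335), and that of 213787_s_at was -0.15 ± 0.05 (adjusted p = 0.0475), where 1 exposed array at 11.71 reached the controls. The dimmer 213789_at of EBP averaged 7.48 in the controls and 7.47 with 100 ug/ml TiO2 and did not pass. FDPS read 11.57, 11.53 and 11.57 in the controls and 11.49, 11.43 and 11.32 with TiO2. All 3 exposed arrays were lower, and the difference was -0.14 ± 0.04 (1.10-fold lower, adjusted p = 0.0349). SQLE on 213562_s_at read 8.05, 8.46 and 8.24 in the controls and 8.03, 7.84 and 7.92 with TiO2, which did not overlap by a narrow margin. The difference was -0.32 ± 0.10 (1.25-fold lower, adjusted p = 0.0381), while 213577_at of SQLE differed by 0.31 ± 0.11 (adjusted p = 0.0743).

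INSIG1 on 201627_s_at read 9.24, 9.55 and 9.34 in the controls and 9.32, 9.01 and 9.01 with 100 ug/ml TiO2. The groups overlapped through 1 exposed array, and the difference was -0.26 ± 0.09 (1.20-fold lower, adjusted p = 0.0493). This call was lost under cyclic loess (adjusted p = 0.178) and in a fit of these groups alone (adjusted p = 0.246). The other INSIG1 probe sets differed by -0.07 ± 0.12 and -0.18 ± 0.10 and did not pass. DHCR7 differed by -0.22 ± 0.09 and -0.18 ± 0.08 on its probe sets (adjusted p = 0.118 and 0.151). SREBF2, HMGCS1, MVD and IDI1 had no probe set that passed, with differences from -0.15 to 0.04. At 10 ug/ml TiO2, LSS 211019_s_at was the 1 member of 22 that fell (4.55%, against 2.52% of all), and none rose. This call was lost without control replicate 1, without exposed replicate 1 or 3, and in a fit of these groups alone (adjusted p = 0.172). The secretory marker list averaged 5.86 to 5.90 in these arrays against 5.61 to 5.74 in the controls, and the fibroblast list 5.25 to 5.41 against 5.19 to 5.25. Their part was not tested.

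The count at 100 ug/ml moved with single arrays. It was 1, the 211019_s_at probe set of LSS, without exposed replicate 2 or without exposed replicate 3. Without any one of the controls it was 5, of which 1 was higher when control replicate 2 or 3 was left out. A fit of these 2 groups alone called 0, and cyclic loess called 2, both of LSS. Cell type markers moved with the group too. The secretory list, 3 of 4 genes measured and none above the table median, averaged 5.61 to 5.74 in the 24 h controls and 5.87 to 6.05 with 100 ug/ml TiO2. The epithelial and basal list, 7 of 8 measured, averaged 6.86 to 7.08 and 6.66 to 6.81. The fibroblast list, 6 of 6 measured with COL1A1 above the table median, averaged 5.19 to 5.25 and 5.31 to 5.40, and the endothelial list, 3 of 3 measured and none above it, 4.87 to 4.94 and 5.03 to 5.12. The part of these shifts in the members' values was not tested.

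With MWCNT at 24 h, no member passed in limma at 10 or at 100 ug/ml, where 0% of all probe sets passed. Unadjusted, 1 of 22 members had a p under 0.05 at 10 ug/ml and 4 of 22 at 100 ug/ml, against 3.63% and 6.04% of all probe sets. At 100 ug/ml 20 of 22 members were below 0 against control (90.9%, against 51.8% of all). Their median was -0.08, against -0.004 over all probe sets. The lowest differences at 100 ug/ml were those of INSIG1. On 201627_s_at its exposed arrays read 9.16, 9.04 and 9.02, all below the 3 controls, with a difference of -0.30 ± 0.09 (95% interval -0.48 to -0.13, adjusted p = 0.741). The mean with 100 ug/ml MWCNT at 24 h was the lowest of all 10 groups on each of the 3 INSIG1 probe sets. EBP 202735_at, which had been lower with MWCNT at 1 h, read 10.62, 10.58 and 10.60 at 10 ug/ml after 24 h, within the range of the controls, and 10.54, 10.54 and 10.50 at 100 ug/ml. The latter lay just below them, with a difference of -0.06 ± 0.05.

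**Figure D3:**
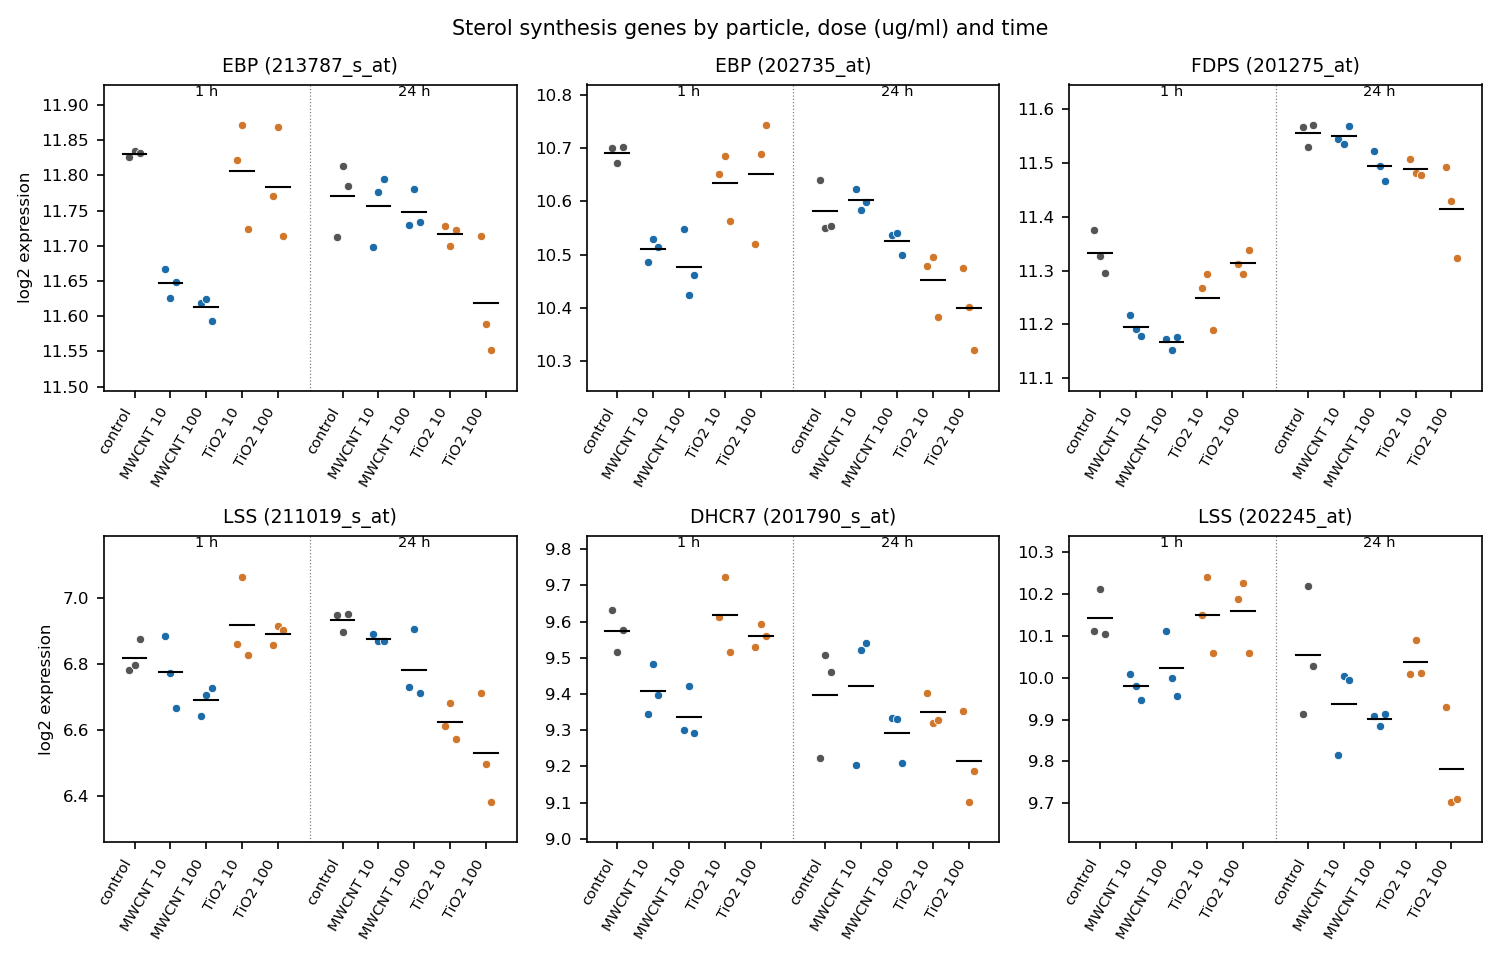
Log2 expression of 6 probe sets of EBP, FDPS, LSS and DHCR7 in each of the 30 arrays (points) with the group mean (bar), by particle, dose in ug/ml and time, each panel with its own axis. At 1 h the MWCNT arrays of EBP lie below the controls (11.59 to 11.67 against 11.83 on 213787_s_at), and the lowest mean in each panel is that of TiO2 at 100 ug/ml and 24 h, except for 213787_s_at and FDPS, where it is that of MWCNT at 100 ug/ml and 1 h.

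**Figure D4:**
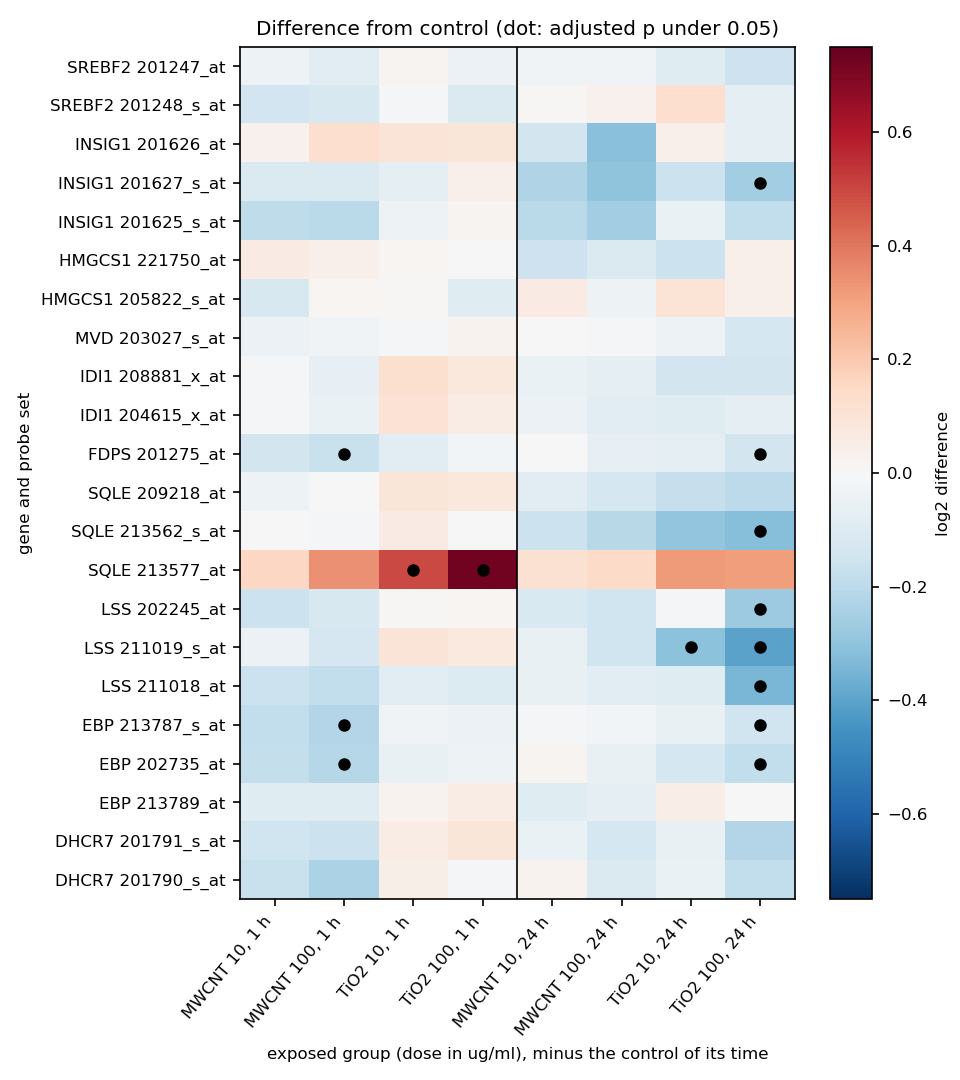
Difference of each exposed group from the control of its time (columns) for the 22 probe sets (rows), as colour on the log2 scale, with a dot where the adjusted p was under 0.05. Dots at 1 h mark EBP and FDPS with MWCNT 100 and 213577_at of SQLE with TiO2, and 8 dots stand in the column of TiO2 100 at 24 h.

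The particles were then compared directly, without the controls. At 1 h no member passed at either dose in limma, where 0.009% of all probe sets passed at 10 ug/ml and 0.018% at 100 ug/ml. Unadjusted, 7 of 22 members at 10 ug/ml and 9 of 22 at 100 ug/ml had a p under 0.05, against 9.84% and 6.28% of all. With both doses averaged, 21 of 22 member probe sets were lower with MWCNT than with TiO2 (95.5%, against 50.6% of all). The median difference was -0.11, against 0.00 over all probe sets. None of them passed (0.117% of all probe sets were lower and passed), although 12 of 22 had an unadjusted p under 0.05, against 11.7% of all. The smallest adjusted p was that of EBP 213787_s_at, 0.0559, at -0.16 ± 0.03, where none of the 6 MWCNT arrays reached any of the 6 TiO2 arrays.

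DHCR7 differed by -0.23 ± 0.06 on 201791_s_at and by -0.22 ± 0.06 on 201790_s_at (adjusted p = 0.169 and 0.150), again with no overlap of 6 arrays against 6. On 201791_s_at the MWCNT arrays read 9.61, 9.70 and 9.61 at 10 ug/ml and 9.64, 9.64 and 9.62 at 100 ug/ml. The TiO2 arrays read 9.91, 9.91 and 9.73, and 9.80, 10.03 and 9.82. SQLE 213577_at differed by -0.36 ± 0.08 (adjusted p = 0.0672). LSS 211019_s_at differed by -0.17 ± 0.05 (adjusted p = 0.198). HMGCS1 was the gene with the exception, at 0.04 ± 0.07 on 221750_at. At 10 ug/ml and 1 h the secretory marker list averaged 5.43 to 5.55 with MWCNT and 5.62 to 5.69 with TiO2. Its part was not tested.

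At 24 h, with both doses averaged, the difference was above 0 for 9 of the 11 probe sets beyond squalene. It was below 0 for 4 of the 5 regulator probe sets and 2 of the 6 of the mevalonate arm, against 44.2% of all probe sets. At 100 ug/ml LSS 211019_s_at was higher with MWCNT by 0.25 ± 0.07 (1.19-fold, adjusted p = 0.0312), as 1 member of 22 (4.55%, against 5.33% of all probe sets), with overlapping groups. This call was lost without replicate 2 or 3 of either particle, and when only the compared groups were fitted (adjusted p = 0.125). At 10 ug/ml it was higher by 0.25 ± 0.07 (adjusted p = 0.0499), again as 1 of 22, against 1.40% of all, and this call was lost without any one of the 6 arrays and in a fit of these groups alone (adjusted p = 0.112). With both doses averaged, LSS 211019_s_at was higher by 0.25 ± 0.05 (adjusted p = 0.00158) and EBP 202735_at by 0.14 ± 0.04 (1.10-fold, adjusted p = 0.0126). These 2 of 22 members (9.09%) stood against 13.4% of all probe sets that were higher and passed, so that the share was below the background. A p under 0.05 before adjustment was found for 7 of 22 members, against 37.1% of all probe sets. The median member difference was 0.06, against 0.02 over all probe sets. The other LSS and EBP probe sets did not pass. The brightest of LSS, 202245_at, averaged 9.94 and 9.90 with 10 and 100 ug/ml MWCNT, against 10.04 and 9.78 with TiO2. On LSS 211018_at these means were 6.62 and 6.59, against 6.58 and 6.33. On EBP 213787_s_at they were 11.76 and 11.75, against 11.72 and 11.62. EBP 213789_at was lower with MWCNT at both doses, with 7.38 and 7.40, against 7.53 and 7.47. The LSS and EBP calls passed without any one of the 12 arrays. The LSS call passed under every alternative fit in which the probe set was tested, and EBP missed the threshold under cyclic loess (0.08, adjusted p = 0.132). INSIG1 201626_at differed the other way, by -0.21 ± 0.08, and did not pass (adjusted p = 0.0701). The secretory marker list averaged 5.48 to 5.64 over the 6 MWCNT arrays at 24 h and 5.86 to 6.05 over the 6 TiO2 arrays. At 100 ug/ml the arrays of MWCNT and TiO2 also stood apart on the fibroblast list (5.15 to 5.24 and 5.31 to 5.40), the endothelial list (4.93 to 4.98 and 5.03 to 5.12) and the immune list (5.17 to 5.26 and 5.31 to 5.36). At 10 ug/ml they did so on the ciliated list, 2 genes measured and none above the table median (6.33 to 6.51 and 6.52 to 6.65). The part of these lists was not tested.

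The change of this particle difference between the times was itself tested. The MWCNT minus TiO2 difference was greater at 24 h than at 1 h for 4 of 22 member probe sets (18.2%, against 1.23% of all), and less for none. LSS 211019_s_at went from -0.17 to 0.25, a change of 0.42 ± 0.07 (adjusted p = 0.00452). EBP 202735_at went from -0.15 to 0.14, a change of 0.29 ± 0.05 (adjusted p = 0.00832), and EBP 213787_s_at from -0.16 to 0.08, a change of 0.25 ± 0.05 (adjusted p = 0.0102). FDPS went from -0.10 to 0.07, a change of 0.17 ± 0.04 (adjusted p = 0.0315). For DHCR7 201790_s_at and IDI1 208881_x_at the change was 0.29 ± 0.08 and 0.21 ± 0.06, which did not pass (adjusted p = 0.0593 and 0.0628). All 11 probe sets beyond squalene were above 0 in this measure, with a median of 0.23, against 0.02 over all probe sets. Of the regulators 1 of 5 was below 0 and of the mevalonate arm 2 of 6, against 43.7% of all probe sets. The EBP and LSS calls passed without any one of the 24 arrays, and FDPS in 14 of the 24. FDPS also missed the threshold under cyclic loess (0.15, adjusted p = 0.0606).

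**Figure D5:**
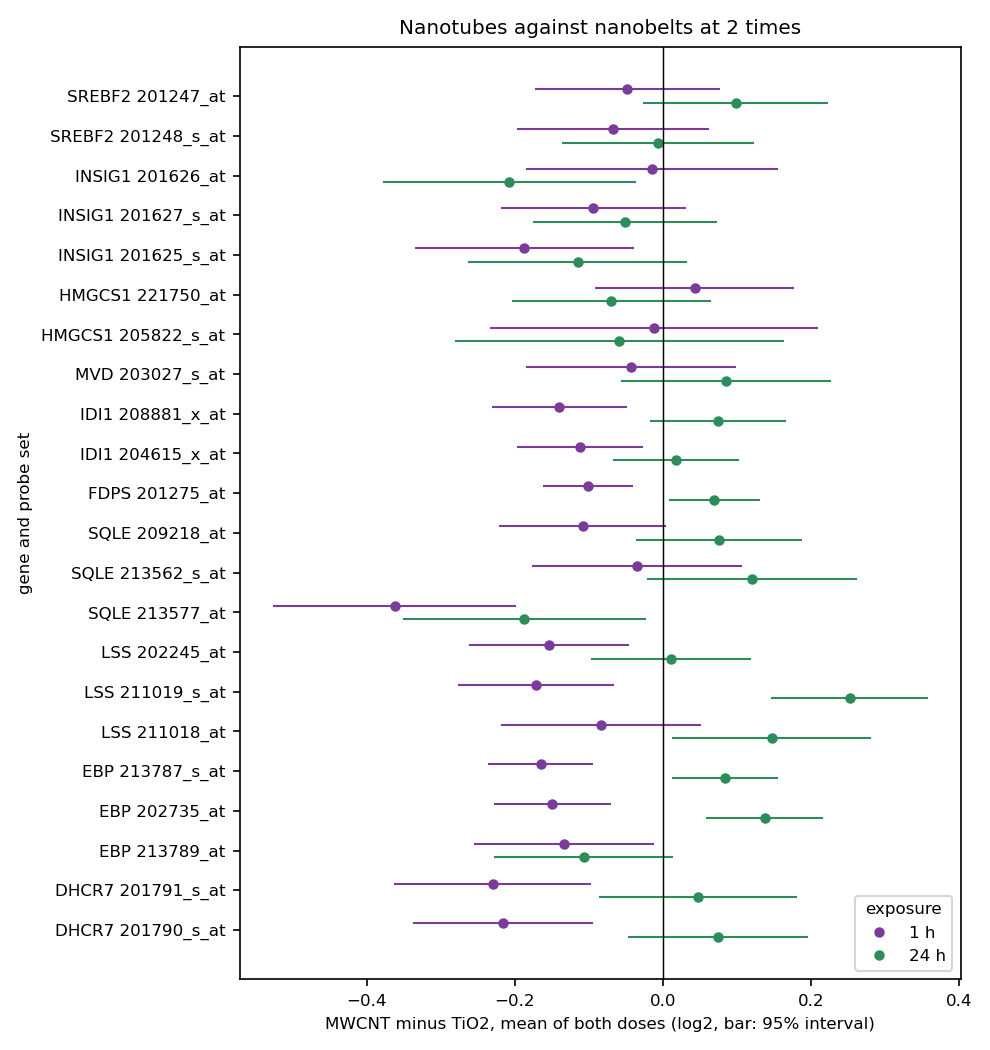
MWCNT minus TiO2 difference, both doses averaged, for the 22 probe sets at 1 h and at 24 h, on the log2 scale with the 95% interval of limma's fit as a bar. At 1 h 21 of 22 points lie left of 0, and at 24 h those of EBP 202735_at (0.14) and LSS 211019_s_at (0.25) lie right of it with intervals that exclude 0.

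The doses of each particle were also compared. Between 100 and 10 ug/ml no member probe set passed in limma in any of the 4 comparisons, where the share of all probe sets that passed was 0.491% for MWCNT at 1 h, 0.230% for TiO2 at 1 h, 0% for MWCNT at 24 h and 0.729% for TiO2 at 24 h. With TiO2 at 24 h, 20 of 22 members were lower at the higher dose (90.9%, against 53.5% of all probe sets). Their median was -0.08, against -0.01 over all. Unadjusted, 4 members had a p under 0.05, against 9.83% of all. With MWCNT 0 members did at 1 h and 0 at 24 h, against 6.4% and 2.35% of all. With TiO2 at 1 h 1 did, against 4.81% of all. It was SQLE 213577_at, whose doses did not overlap and differed by 0.23 ± 0.11 (adjusted p = 0.999). An adjusted p above the threshold does not show that the doses acted alike.

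Other genes of the pathway were counted in lists. Of 14 further cholesterol synthesis enzymes, 10 were measured, on 15 probe sets. In unexposed cells over time 6 of these probe sets rose (40%, against 16.2% of all) and 4 fell (26.7%, against 11.6%). Among them MSMO1, a sterol methyl oxidase, fell by 0.52 ± 0.07. NSDHL, which acts beside it, fell by 0.35 ± 0.08, while GGPS1, which uses farnesyl diphosphate, rose by 0.46 ± 0.07 and PMVK, a kinase of the mevalonate arm, by 0.32 ± 0.08. With 100 ug/ml TiO2 at 24 h 1 rose and 1 fell (6.67% each, against 3.82% and 6.55% of all). MVK 36907_at differed by 0.27 ± 0.06 (adjusted p = 0.0108) and PMVK by -0.25 ± 0.08 (adjusted p = 0.0379). The other MVK probe sets, for the kinase that phosphorylates mevalonate, differed by -0.01 and -0.19 and did not pass. None of the 15 passed at 1 h with either particle in limma, where the greatest difference with 100 ug/ml MWCNT was that of NSDHL, -0.18 ± 0.08 (adjusted p = 0.325). Between the particles at 24 h, both doses averaged, MVK 36907_at was lower with MWCNT, with a difference of -0.25 ± 0.04, and PMVK and GGPS1 202322_s_at were higher, with 0.17 ± 0.05 and 0.19 ± 0.04. These were 1 of 15 lower (6.67%, against 2227 of all 22215) and 2 of 15 higher (13.3%, against 13.4% of all). The other MVK probe sets differed by 0.05 and 0.11 and GGPS1 202321_at by 0.11, and none of them passed. For the change of the particle difference between the times, none of the 15 passed in limma, while 1.23% of all probe sets were greater and passed. Their median change was 0.09, against 0.02 over all.

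Of the sterol sensing, uptake and transport list, 9 of 12 genes were measured on 14 probe sets. NPC1, which exports cholesterol from lysosomes, fell with 100 ug/ml TiO2 at 24 h, with a difference of -0.20 ± 0.05 (adjusted p = 0.0113). This was probe set 202679_at, 1 of 14 (7.14%), near the 6.55% of all probe sets that fell there. At 24 h, both doses averaged, it was higher with MWCNT than with TiO2 by 0.15 ± 0.03, as 1 of 14 (7.14%), against 13.4% of all. The dimmer NPC1 probe set, 217584_at, differed by -0.05 ± 0.08 between the particles and did not pass. Of 7 probe sets for the LXR and cholesterol efflux genes, NR1H3, a receptor of oxidised sterols, fell in the same group, with a difference of -0.24 ± 0.07 (adjusted p = 0.0234), as 1 of 7 (14.3%). Of 20 probe sets for fatty acid synthesis, 4 fell in that group and none rose. The desaturase genes SCD and FADS2 differed by -0.34 ± 0.11 and -0.27 ± 0.08, ACACA, the carboxylase of the first step, by -0.22 ± 0.06 and LPIN1 by -0.20 ± 0.05. For SCD, ACACA and LPIN1 this was 1 probe set each, of 4, 2 and 3 measured, and the others did not pass. Between the TiO2 doses at 24 h, SCD 200831_s_at was lower at 100 ug/ml, with a difference of -0.54 ± 0.12 (adjusted p = 0.0208). The share of 20% against control stood against 6.55% of all probe sets. In unexposed cells over time 7 of the 20 fell (35%, against 11.6% of all), among them SCD with -0.63 ± 0.12, 3 rose (15%, against 16.2%) and 10 did not pass. Between the particles at 24 h, both doses averaged, 1 of the 20 was lower with MWCNT (5%, against 2227 of all 22215). It was ELOVL6 210868_s_at, with a difference of -0.20 ± 0.07 (adjusted p = 0.0406). Against control, 1 of the 20 rose with 100 ug/ml TiO2 at 1 h (5%, against 2.34% of all). At 10 ug/ml TiO2 and 24 h 1 fell (5%, against 2.52%). With MWCNT at 24 h no probe set of these lists passed against control, and none passed for the change of the particle difference between the times.

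The members' profile over the groups was then described, as the mean of the 10 genes' brightest probe sets after each was centred on its own mean. It was 0.17 ± 0.03 in the 1 h controls, 0.10 ± 0.02 and 0.10 ± 0.01 with 10 and 100 ug/ml MWCNT, and 0.20 ± 0.05 and 0.19 ± 0.04 with TiO2 (SD, n = 3). At 24 h it was -0.07 ± 0.09 in the controls, -0.14 ± 0.06 and -0.18 ± 0.03 with MWCNT, and -0.15 ± 0.06 and -0.22 ± 0.11 with TiO2. Time separated the groups, all 5 at 1 h lying above all 5 at 24 h. Over the 10 group means SREBF2, INSIG1, HMGCS1, IDI1, SQLE and DHCR7 correlated with this profile, to which each contributes, at r from 0.91 to 0.99, LSS at 0.82 and MVD at 0.76. EBP stood apart at 0.33 and FDPS ran against it at -0.76. Of 4605 other probe sets above the table median whose group means spanned at least 0.3, the 5 most like the profile were those of NDRG1, SLC2A1, ABLIM1, RIPK4 and PDCD6, at r from 0.985 to 0.989. SLC2A1, a glucose transporter, went from 8.79 in the 1 h controls to 8.13 in the 24 h controls. Likeness was measured over 10 groups that share the step between the times.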

How the data were processed

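Total RNA from 30 cultures was hybridised to Affymetrix arrays. The authors deposited log2 expression per probe set, processed with RMA of unstated version per the submitters' processing notes. RMA (robust multi-array average) corrects background, equalises the arrays by quantiles and summarises the probes, so small fold changes can be understated. No further normalisation was applied here. Of 22277 probe sets, 62 array controls were left out. Among the 22215 tested, the platform annotation gave 19064 1 gene symbol, 1043 several and 2108 none. Probe sets carry no positions here, as their build is not given in the sources used here. As arrays give no read depth, their number limits the precision.

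Each probe set was fitted with 1 mean per group over all 10 groups in limma 3.58.1 (R 4.3.3, lmFit and eBayes), with two-sided p-values adjusted by Benjamini-Hochberg over all probe sets within each of 20 comparisons. Differences carry the fit's standard error, and folds are 2 to the power of the difference. With 3 arrays a group, exact permutation of the labels reaches no p below 0.1, so calls rest on the spread pooled over groups. The fit was tested on simulated data with the same spread in all groups and differences added to TiO2 100 at 24 h. Against control it called 28.4% of simulated differences of 0.25, 85.1% of those of 0.5 and 100% of those of 1. Unequal spread between arrays was not simulated. Probe sets of 1 gene share a target and are not replicates. All members are named; of each other list, up to 4 called probe sets per comparison could be named, otherwise the one with the greatest difference. The members, lists and tests were chosen with earlier results of these data known. Alternatives were 1 probe set per gene, a filter on dim probe sets, cyclic loess, array weights, a mean-variance trend, the compared groups alone, a replicate block, and leaving out each array. Promoters were searched with Python 3.11.15, and plots drawn with matplotlib 3.10.9.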

Additional observations from a re-analysis of the deposited data

Results flagged for a closer look

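For 4 probe sets the difference between nanotubes and nanobelts, both doses averaged, was not the same at 24 h as at 1 h by limma's test of that change. It was greater at 24 h by 0.42 for LSS 211019_s_at, by 0.29 for EBP 202735_at, by 0.25 for EBP 213787_s_at and by 0.17 for FDPS 201275_at on the log2 scale. The FDPS call was lost in 10 of the 24 fits that each left out 1 array, and under cyclic loess (adjusted p = 0.0606). On each of the 4 probe sets MWCNT was below TiO2 at 1 h and above it at 24 h. The other probe sets of LSS and EBP did not pass that test of change.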

How the results depend on the processing

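No called difference of a member changed sign under any alternative run. Array weights raised the number of the 22 member probe sets called: TiO2 100 against control at 24 h from 8 to 15, the controls over time from 8 to 13, MWCNT against TiO2 with both doses averaged from 0 to 8 at 1 h, from 2 to 7 at 24 h and from 4 to 9 for the change between the times, MWCNT 100 against TiO2 100 at 24 h from 1 to 5, MWCNT 10 against TiO2 10 at 1 h from 0 to 2, MWCNT 100 against control at 24 h from 0 to 3, TiO2 10 against control at 24 h from 1 to 3 and TiO2 100 against 10 at 24 h from 0 to 1. These weights were 0.290, 0.424 and 5.30 for replicates 1 to 3 of the 24 h controls. With 1 probe set per gene, and so 10 in place of 22, the counts were 4 for the controls over time, 3 for TiO2 100 at 24 h, 2 for the change between the times, 1 for both doses at 1 h, and 0 for both doses at 24 h, for TiO2 10 and TiO2 100 at 1 h, for TiO2 10 at 24 h and for the particles at 10 and at 100 ug/ml at 24 h. A fit of the compared groups alone gave 0 for MWCNT 100 at 1 h, TiO2 10 and TiO2 100 at 24 h and the particles at 10 ug/ml at 24 h, and 1 for both doses at 1 h; it rests on fewer arrays. For the particles at 100 ug/ml at 24 h that fit called 1 probe set, which was not LSS 211019_s_at (adjusted p = 0.125). Cyclic loess gave 2 for TiO2 100 at 24 h, 0 for the particles at 10 ug/ml at 24 h and 1 for both doses at 1 h. The mean-variance trend gave 2 for the particles at 100 ug/ml at 24 h, 0 at 10 ug/ml, and 2 and 5 for both doses at 1 and 24 h. The filter on dim probe sets gave 2 for both doses at 1 h, and 0 for TiO2 10 and for the particles at 10 ug/ml at 24 h, where LSS 211019_s_at is not tested. The cause of these shifts was otherwise not tested.

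Leaving out 1 array at a time gave 7 to 11 for the controls over time, 0 to 2 for MWCNT 100 at 1 h, 0 to 1 for TiO2 10 at 1 h, 1 to 1 for TiO2 100 at 1 h, 0 to 2 for TiO2 10 at 24 h, 1 to 8 for TiO2 100 at 24 h, 0 to 0 and 0 to 2 for the particles at 10 and 100 ug/ml at 24 h, 0 to 1 and 2 to 4 for both doses at 1 and 24 h, and 3 to 5 for the change between the times. For TiO2 10 at 24 h it was 0 without control replicate 1 or without exposed replicate 1 or 3. For the particles at 100 ug/ml at 24 h it was 0 without MWCNT or TiO2 replicate 2 or 3.

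Groups share replicate numbers, but the numbers do not pair the cultures: of 135 pairs of arrays with one number, 20 correlated over 0.1 in their deviations from the group means, with a median of 0.014. With the number as a replicate block, LSS 211019_s_at between the particles at 10 ug/ml and 24 h had an adjusted p of 0.0519, a count of 0, and INSIG1 201627_s_at with TiO2 100 at 24 h one of 0.0581. With 3 arrays a group, the number of arrays limits what can be called among differences of this size.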
